A study of Mus musculus with 98 samples.

Results

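Fabp7 and 7 further genes known from tanycytes, namely Rax, Dio2, Crym, Gpr50, Vim, Nes and Slco1c1, were followed in the suprachiasmatic nucleus (SCN) and the arcuate nucleus (ARC) of mice with chimeric livers. These 8 genes were chosen by symbol among the 20415 gene rows of a raw count table of mouse tissues, and all 8 had a row. Fabp7 was selected because it was the single gene whose 24 h rhythm passed the threshold in the SCN of mice with human hepatocytes, with an adjusted p-value of 0.0162. The genes just outside that threshold, Ciart and Nr1d1, both stood at 0.0614. These values chose Fabp7, so its rhythm in that group and the rhythm averaged over both groups of SCN libraries are described below without a test. The other 7 were chosen for their known expression in tanycytes.

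Tanycytes are elongated glial cells that line the floor and lower walls of the third ventricle, beside the ARC and the median eminence, and send a process into the underlying tissue. They take up, activate and pass on hormones and metabolites, and are best known for setting local thyroid hormone levels in seasonal animals. Fabp7 encodes the brain lipid-binding protein, a carrier of long-chain fatty acids in radial glia, astrocytes and tanycytes, and its messenger RNA is known to cycle over the day in mouse brain and to be repressed by the clock protein REV-ERBα, the product of Nr1d1. Of the others, Rax is a homeobox transcription factor of the tanycyte lineage. Slco1c1 is a transporter of thyroxine, Dio2 the deiodinase that converts thyroxine to active triiodothyronine, and Crym a cytosolic binder of triiodothyronine. Gpr50 is an orphan receptor related to the melatonin receptors, and Vim and Nes encode the intermediate filament proteins vimentin and nestin.

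All mice were FRGN males of 10 weeks, which carry Fah-/-, Rag2-/- and Il2rg-/- on a line crossed with the non-obese diabetic strain. Their livers were repopulated with human hepatocytes (Hu arm) or with murine hepatocytes (Mu arm). Both arms were cycled on nitisinone, which protects Fah-deficient hepatocytes, with sulfamethoxazole and trimethoprim, dextrose water and a high-energy diet. Hu mice entered the study only with a high share of human hepatocytes, so the Mu arm is a transplanted control and not an untreated mouse. The brain is of mouse origin in both arms. Each region gave 12 Mu libraries, 2 at each of ZT (zeitgeber time, counted in hours from lights on) 2, 6, 10, 14, 18 and 22, and 10 Hu libraries, 2 at ZT 2, 10, 14 and 18 and 1 at ZT 6 and 22. Nothing in the labels ties a library to a single animal, so the p-values measure the spread between these libraries, and whether an ARC and an SCN library came from the same mouse is not stated.

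Depth lay between 23719776 and 47130028 counts per library in ARC and between 25472594 and 34947358 in SCN, and levels are given as counts-per-million (CPM) after scaling by the trimmed mean of M-values (TMM). The region labels were checked against neuronal markers. Of all 15424 genes tested between regions, 34% were lower in SCN and 37.6% were higher. All 6 ARC neuron markers in the table were tested and 5 were lower in SCN, among them Agrp, whose log2 level differed by -3.67 ± 0.22 (SCN minus ARC, SE; edgeR adjusted p = 1.14e-16). Of 8 SCN neuron markers, however, 5 were also lower in SCN libraries and 1 was higher, and Six6 differed by -2.99 ± 0.29 (edgeR adjusted p = 2.5e-11), so these markers did not set the SCN libraries apart as SCN tissue. The SCN libraries also varied more among themselves. The second Mu library at ZT 2 stood apart, with a median correlation of 0.975 (log2 CPM across genes) with the other SCN libraries, and held 61.3 CPM of Lhx2, against a median of 9.29 CPM over the SCN libraries. Results that rest on it are given with and without it.

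Promoter sequences were looked up because Fabp7 cycled and Slco1c1 had the next smallest p-value for a rhythm among the 8 genes in SCN. RefSeq entries (GRCm38.p6, from 250 bases before to 50 bases after the annotated start) matched 6 of the 8 genes, all but Rax and Crym. Both strands were searched for TAGGTCA, the core of the element bound by REV-ERB and ROR proteins, for CACGTG, the E-box bound by CLOCK and BMAL1, and for TGACGTCA, the cyclic AMP response element. No pair of these motifs overlaps in the matches found. The Fabp7 window lies at chr10:57784673-57784972 on the plus strand and holds 1 match to TAGGTCA, on the opposite strand, whose first base lies at -171 from the start. The Slco1c1 window lies at chr6:141524104-141524403 on the plus strand and holds 1 E-box, 20 bases past the start. Each is printed 5′ to 3′ along its gene, with the match in capitals.
Fabp7: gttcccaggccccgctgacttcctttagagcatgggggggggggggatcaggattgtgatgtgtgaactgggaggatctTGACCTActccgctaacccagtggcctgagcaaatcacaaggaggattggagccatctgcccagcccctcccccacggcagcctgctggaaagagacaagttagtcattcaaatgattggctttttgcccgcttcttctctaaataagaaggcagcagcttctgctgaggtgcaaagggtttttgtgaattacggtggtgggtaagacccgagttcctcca
Slco1c1: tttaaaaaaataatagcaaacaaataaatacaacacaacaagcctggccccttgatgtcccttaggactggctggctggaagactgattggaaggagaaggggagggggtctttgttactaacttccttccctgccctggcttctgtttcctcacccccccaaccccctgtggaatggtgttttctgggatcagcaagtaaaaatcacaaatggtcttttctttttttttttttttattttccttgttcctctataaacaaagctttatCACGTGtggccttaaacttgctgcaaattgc
Of all 32851 promoter windows, 2.61% held TAGGTCA, 7.15% the E-box and 1.79% TGACGTCA. Dio2 had 1 match to TGACGTCA at -95, and Gpr50, Vim and Nes had no match to these letters in their windows. A match is a description of the letters and not a measured binding site.

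In ARC libraries, Fabp7 (ENSMUSG00000019874; GRCm38 chromosome 10, 57784881 to 57788450, plus strand) rose and fell once over the day in both arms. In Mu the libraries gave 55.2 and 57.0 CPM at ZT 2, 42.6 and 49.1 at ZT 6, 27.4 and 33.2 at ZT 10, 21.8 and 26.7 at ZT 14, 13.3 and 17.7 at ZT 18, and 28.6 and 29.7 at ZT 22. Levels were thus highest at ZT 2, early in the light phase, and lowest at ZT 18. The libraries of ZT 2 did not overlap those of any other time point. In Hu they gave 41.0 and 46.0 CPM at ZT 2, 30.9 at ZT 6, 17.3 and 19.9 at ZT 10, 10.6 and 12.9 at ZT 14, 14.03 and 24.1 at ZT 18, and 35.3 at ZT 22. Here the lowest point came at ZT 14, one sampling time before that of Mu. The log2 amplitude of the fitted 24 h cosine was 0.80 ± 0.15 (jackknife SE over libraries) in Mu, with the peak at ZT 4.35 ± 0.49 h, a 3.03-fold change from trough to peak. In Hu the amplitude was 0.90 ± 0.10 and the peak lay at ZT 1.79 ± 0.68 h, a 3.46-fold change. The rhythm passed the test in both arms (edgeR quasi-likelihood test with Benjamini-Hochberg adjustment over all genes, adjusted p = 0.000571 in Mu and adjusted p = 0.0014 in Hu, 12 and 10 libraries). Of the 15079 genes tested in ARC, 1.41% were called rhythmic in Mu and 0.0995% in Hu, and 3.41% for the rhythm averaged over both arms. Without single libraries these counts ran from 86 (second Mu library of ZT 22) to 282 genes around 213 in Mu, from 5 (second Hu library of ZT 10) to 18 around 15 in Hu, and from 329 (Hu library of ZT 6) to 703 around 514 for the averaged rhythm. Fabp7 was the single gene of the 8 called in each of these tests, and its averaged amplitude ranked 5 among the 514 genes called for the averaged rhythm (adjusted p = 7.75e-06 for Fabp7). These ARC tests did not use the values that chose the gene, but the SCN and ARC rhythms of these mice were both known when it was chosen. Libraries of both regions may also come from the same animals, so the ARC tests may not be independent of that choice.

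In SCN libraries Fabp7 also ran through 1 high and 1 low point over the day in each arm. The Mu libraries gave 45.4 and 67.6 CPM at ZT 2, 37.1 and 42.2 at ZT 6, 26.99 and 34.02 at ZT 10, 14.7 and 18.8 at ZT 14, 12.99 and 15.94 at ZT 18, and 25.7 and 33.55 at ZT 22. The highest of these was the library that stood apart. The Hu libraries gave 35.1 and 47.9 CPM at ZT 2, 26.1 at ZT 6, 16.01 and 19.6 at ZT 10, 10.7 and 12.5 at ZT 14, 15.96 and 24.8 at ZT 18, and 36.7 at ZT 22. As in ARC, the lowest Hu values fell at ZT 14 and the lowest Mu values at ZT 18. The fitted amplitude was 0.93 ± 0.15 with the peak at ZT 3.85 ± 0.53 h in Mu, and 0.87 ± 0.13 with the peak at ZT 1.28 ± 0.70 h in Hu. In Mu, Fabp7 had the smallest p-value of the 15006 genes tested (edgeR adjusted p = 0.00316, and adjusted p = 0.00591 without the library that stood apart). The Hu SCN libraries share the dispersion of this fit, so this p-value and rank are not independent of the values that chose the gene. In SCN, 0.207% of genes were called in Mu, 0.00666% in Hu, which is Fabp7 itself and was fixed by its choice, and 0.886% for the averaged rhythm. Without single libraries the counts ran from 10 (first Mu library of ZT 10 or second of ZT 18) to 56 genes (Hu library of ZT 6) around 31 in Mu, and from 76 (Hu library of ZT 6) to 266 (first Hu library of ZT 2) around 133 for the averaged rhythm. The single call in Hu became 0 without either Hu library of ZT 14, the first of ZT 2, the second of ZT 10 or that of ZT 22, and 3 without the Mu library that stood apart. Rax did not pass the filter on low counts in SCN, and edgeR called none of the other 6 genes in any of these 3 SCN tests. Slco1c1 was called for the averaged rhythm by DESeq2 (adjusted p = 0.0138) and by edgeR without the library that stood apart (adjusted p = 0.0264). The rhythm of Fabp7 was not called different between SCN and ARC in Mu (adjusted p = 0.949), a test in which 0% of 15424 genes were called by edgeR, 758 genes had an unadjusted p-value under 0.05, and DESeq2 called 1 gene.

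**Figure D1:**
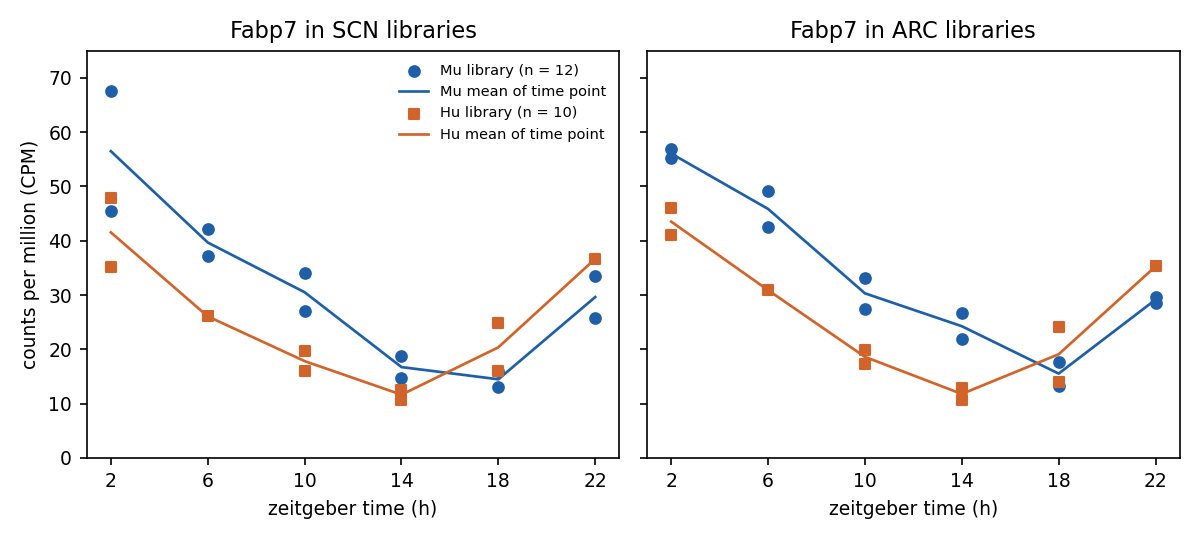
Fabp7 in counts-per-million (CPM) against zeitgeber time in hours, in SCN (left) and ARC (right) libraries. Each point is 1 library, circles for Mu (12 per region) and squares for Hu (10 per region), and lines join the means of the time points. Both arms are highest at ZT 2, and the lowest mean lies at ZT 18 in Mu and at ZT 14 in Hu in both regions.

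The fitted peak of Fabp7 lay earlier in Hu than in Mu in both regions. Hu minus Mu, it differed by -2.57 ± 0.83 h (jackknife SE, 22 libraries) in ARC and by -2.57 ± 0.86 h in SCN. The SCN values include the Hu SCN libraries that chose the gene, so they are a description and no separate support for the ARC difference. In ARC both Hu libraries lay below both Mu libraries at ZT 2, 10 and 14, the single Hu library lay below both at ZT 6 and above both at ZT 22, and the arms overlapped at ZT 18. In SCN the Hu libraries lay below the Mu libraries at ZT 6, 10 and 14 and above them at ZT 18 and 22, and overlapped them at ZT 2. Leaving out each library in turn kept the difference between -2.91 and -2.02 h in ARC and between -2.91 and -2.08 h in SCN. In a permutation test of the ARC phase difference added after the values were seen, an ordinary cosine fit to log2 CPM gave -2.49 h (exact test over all 11664 arrangements of the arm labels within time points, 2-sided p = 0.0084, 12 Mu and 10 Hu libraries). In the model across all genes, a different rhythm between arms was called for 0% of genes in ARC, Fabp7 included (edgeR adjusted p = 1 for Fabp7 in ARC). In SCN it was also called for 0% of genes. The SCN contrast of Fabp7 holds the Hu SCN values that chose it, so it is no separate test of this gene. At an unadjusted p-value under 0.05 that model held 269 genes in ARC and 210 in SCN, and DESeq2 also called 0 in each.

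Earlier fitted peaks in Hu were also found among other rhythmic genes. Among the 514 genes called for the averaged rhythm in ARC, 85.8% peaked earlier in Hu, with a median difference of -1.55 h. Among the 133 called in SCN 80.5% did, with a median of -1.36 h. Within a region all genes, Fabp7 included, were read from the same libraries, so a shift in a few libraries can move many genes together. These shares therefore do not count independent observations. Calling genes by the averaged rhythm also disfavours those whose arms peak far apart. The share over all genes tested is not given here. Of 18 core clock and clock-output genes, 11 were called in ARC and 6 in SCN, beside 3.41% and 0.886% of all genes tested. Of those called, 10 in ARC and 5 in SCN peaked earlier in Hu. In ARC these were Arntl, Nr1d1, Nr1d2, Per1, Per2, Dbp, Tef, Nfil3, Ciart and Bhlhe41, with differences down to -2.44 h, and Per3 was later by 0.39 h. Nr1d1, the repressor named above, peaked at ZT 7.75 in Mu and ZT 5.55 in Hu in ARC, a difference of -2.19 h, and at ZT 7.35 and ZT 5.12 in SCN, a difference of -2.22 h. The fitted Fabp7 peak lay before that of Nr1d1 in each arm and region. Whether the Fabp7 difference exceeded that of the clock genes was not tested.

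**Figure D2:**
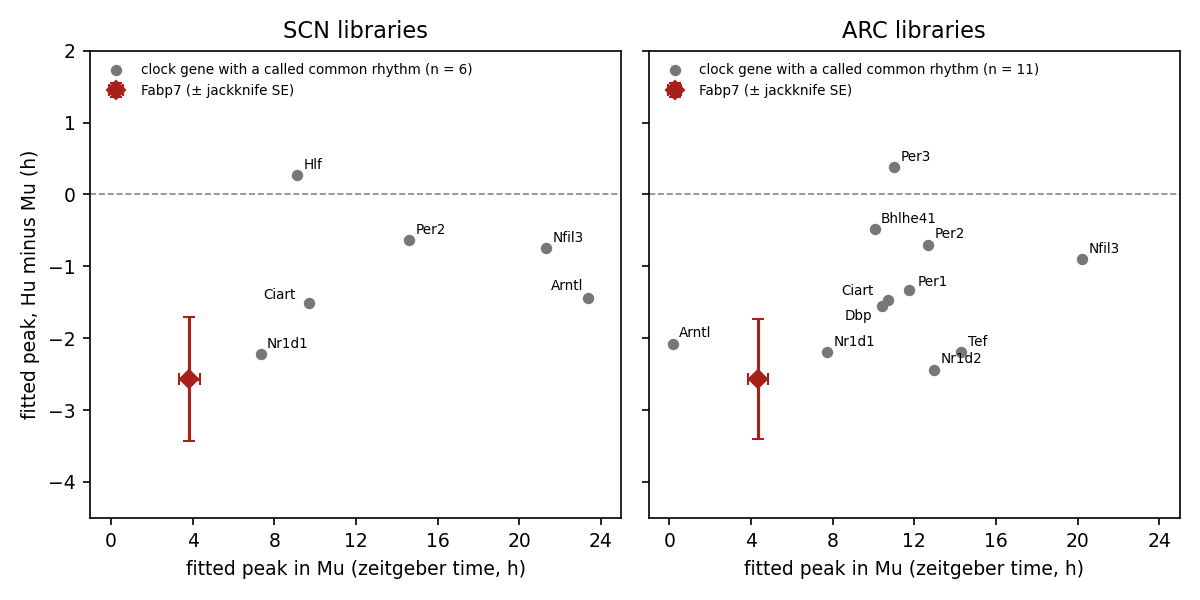
Fitted peak difference, Hu minus Mu in hours, against the fitted peak in Mu (zeitgeber time, hours), for SCN (left) and ARC (right). Grey points are the clock genes with a called averaged rhythm (6 in SCN, 11 in ARC), and the red diamond is Fabp7 with jackknife SEs. Fabp7 lies at -2.57 h in both panels, and all but 1 clock gene per panel lie below 0. The SCN point of Fabp7 includes the Hu SCN values that chose the gene.

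The level of Fabp7 averaged over the day was not called different between arms. The mean was 33.5 ± 14.3 CPM in Mu (SD, n = 12) and 25.2 ± 12.5 CPM in Hu (SD, n = 10) in ARC, and 31.2 ± 15.8 and 24.5 ± 12.1 CPM in SCN. The model gave a log2 difference, Hu minus Mu, of -0.36 ± 0.10 (SE; edgeR adjusted p = 0.645) in ARC and -0.25 ± 0.11 (adjusted p = 1) in SCN, so neither passed the test. The other genes ranged from -0.32 for Crym to 0.09 for Vim in ARC and from -0.40 for Crym to 0.18 for Gpr50 in SCN, and none of the 8 was called. Over all genes, 0.00663% were called between arms in ARC and 0% in SCN, where edgeR gave 325 genes at an unadjusted p-value under 0.05 and DESeq2 called 1.

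Genes that followed Fabp7 most closely were sought over all 44 brain libraries, after the mean of each region and arm had been removed. The 5 with the highest Pearson r were Emp2 (0.87), an epithelial membrane protein, S100a16 (0.84), a calcium-binding protein, Aqp9 (0.79), a channel for water and glycerol, Aif1l (0.76) and Lap3 (0.75), an aminopeptidase. These values are a description, since the libraries share their time points. Within single regions the coefficient was 0.88 for Emp2 in ARC and 0.88 in SCN, and 0.78 and 0.89 for S100a16 over 22 libraries each. The daily course of each arm was left in these correlations, including the Hu SCN values that chose Fabp7. Peak times and rhythm calls of the 5 genes therefore partly follow from their choice and are no separate support. All 5 peaked earlier in Hu in both regions, by between 0.89 h for Aif1l in ARC and 3.42 h for Aqp9 in SCN. Emp2, S100a16 and Aqp9 were called for the averaged rhythm in both regions, Aif1l in ARC, and Lap3 in neither (adjusted p = 0.0616 in SCN and adjusted p = 0.0764 in ARC, edgeR). None of the other 7 genes studied here was among the 5.

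Rax separated the regions by the widest margin. It was counted with 18 to 113 reads per ARC library and 0 to 6 reads per SCN library. In ARC it ranged from 0.858 to 2.71 CPM with a median of 1.87 in Mu, and from 0.763 to 2.33 CPM with a median of 1.89 in Hu. In SCN no library exceeded 0.178 CPM, so the regions did not overlap. The log2 difference, SCN minus ARC, was -4.57 ± 0.24 (SE; edgeR adjusted p = 6.11e-18, 22 libraries each), a 23.8-fold lower level. Rax passed the filter on low counts in ARC but not in SCN, so it entered this test through ARC, where it is high. The direction was thus largely fixed in advance, and the fold rests on at most 6 reads per SCN library. In bulk tissue, fewer cells of a type and less RNA per cell cannot be told apart, here and in all region differences. The gene lies on chromosome 18 and shares 1604 exon bases with Raxos1 on the opposite strand. The library kit keeps strand but the counting setting is not given in the sources used here, so reads of the pair may not have been separated.

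Gpr50, the orphan receptor, was also lower in SCN libraries. It ranged from 9.08 to 17.9 CPM with a median of 13.6 in ARC, and from 2.36 to 13.8 CPM with a median of 6.11 in SCN. The ranges overlapped in the upper SCN libraries, such as the single Hu library at ZT 22 with 13.8 CPM and the second Mu library at ZT 18 with 13.4 CPM. The log2 difference was -0.99 ± 0.17 (edgeR adjusted p = 2.15e-06), a 1.99-fold lower level. No rhythm of Gpr50 was called in either region.

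Crym, Nes and Slco1c1 were higher in SCN libraries. Crym, the triiodothyronine binder, ranged from 0.121 to 3.996 CPM with a median of 1.87 in ARC and from 0.701 to 58.3 CPM with a median of 5.49 in SCN. Its 3 highest SCN values were 58.3 and 29.3 CPM in the Mu libraries at ZT 2 and 28.9 CPM in the Hu library at ZT 6. The same 3 libraries had the lowest Gpr50 levels in SCN, of 2.36, 2.57 and 2.46 CPM. The log2 difference of Crym was 1.99 ± 0.40 (edgeR adjusted p = 3.95e-05), and 1.83 (adjusted p = 8.93e-05) without the library that stood apart. Replicates of 1 time point could be far apart, as at ZT 6 in SCN, where the Mu libraries gave 1.19 and 16.1 CPM.

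Nes, or nestin, ranged from 5.55 to 14.1 CPM with a median of 9.78 in ARC and from 7.74 to 23.5 CPM with a median of 14.5 in SCN. Its log2 difference was 0.57 ± 0.10 (edgeR adjusted p = 3.17e-06), and the ranges overlapped. Slco1c1, the thyroxine transporter, ranged from 36.2 to 60.1 CPM with a median of 47.2 in ARC and from 47.0 to 81.2 CPM with a median of 58.0 in SCN. Its log2 difference was the smallest called, 0.35 ± 0.05 (adjusted p = 5.08e-07). Slco1c1 is also a gene of brain endothelium and astrocytes. Of all genes tested between regions, 37.6% were higher in SCN. All 7 endothelial markers on the list were higher in SCN, with a median log2 difference of 0.51. So were 4 of 5 mural cell markers, with a median of 0.52, beside a median of 0.02 over all genes tested. Of 8 astrocyte markers, 3 were higher and 3 lower in SCN, with a median of -0.04. Higher in SCN were also 4 of 5 microglia markers (median 0.15) and 3 of 5 oligodendrocyte markers (median 0.13). The part of these cell types in the Slco1c1 difference was not tested.

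Fabp7, Dio2 and Vim were not called between regions. The log2 differences were -0.08 ± 0.08 for Fabp7 (edgeR adjusted p = 0.377), -0.09 ± 0.17 for Dio2 (adjusted p = 0.651) and 0.02 ± 0.11 for Vim (adjusted p = 0.9). Dio2 ranged from 5.65 to 23.97 CPM in ARC and from 3.93 to 27.1 CPM in SCN. Vim, or vimentin, ranged from 27.97 to 40.9 CPM in ARC, while 2 SCN libraries stood far above, the first Mu library at ZT 10 with 76.1 CPM and the Hu library at ZT 6 with 68.6 CPM. The same libraries had the highest Nes levels, of 23.5 and 22.2 CPM. In all, 5 of the 8 genes were called between regions, 3 higher and 2 lower in SCN, beside 71.6% of the 15424 genes tested, 37.6% higher and 34% lower. A share of 5 in 8, which includes Rax with its filter limit, is near that background. The region difference was not called different between arms for any of the 8, nor for any gene (0% called by edgeR, 175 genes at an unadjusted p-value under 0.05, and 1 called by DESeq2).

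**Figure D3:**
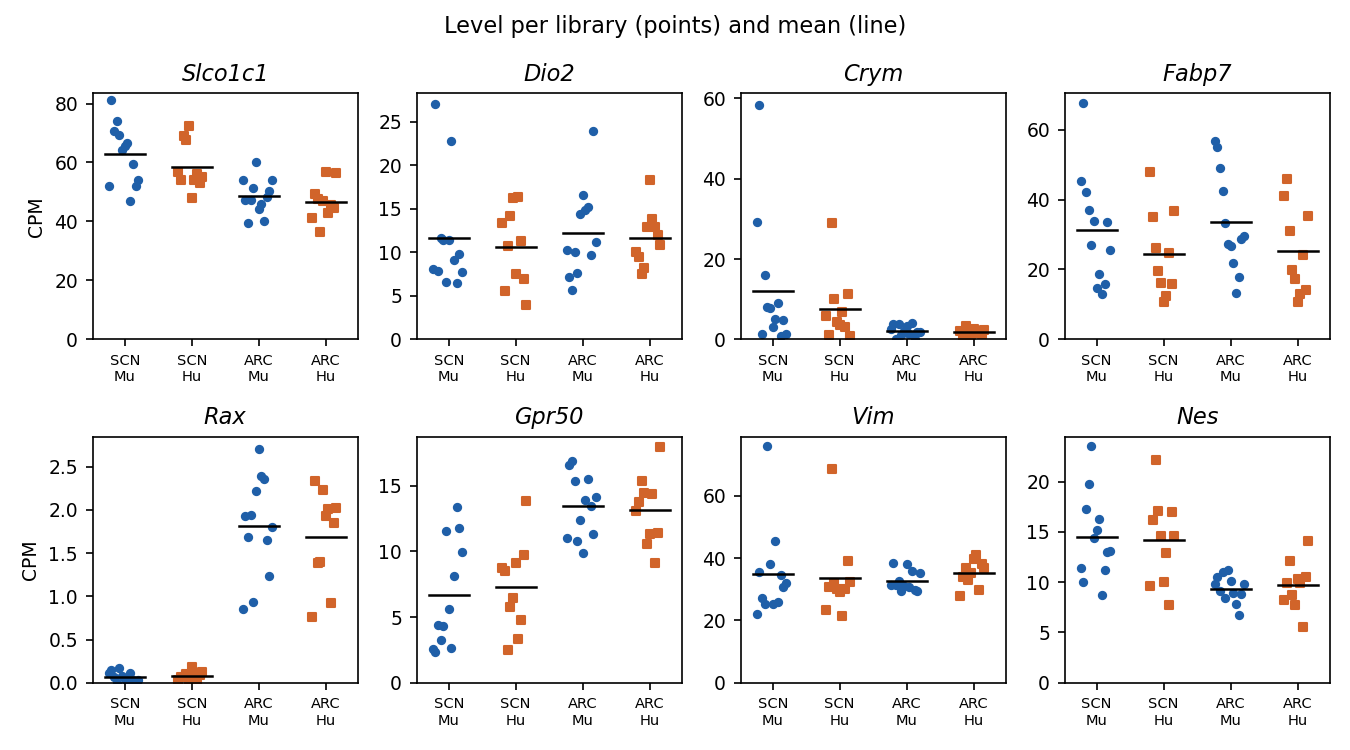
Level of each of the 8 genes in counts-per-million (CPM), by region and arm. Each point is 1 library, circles for Mu (n = 12) and squares for Hu (n = 10), spread sideways for legibility, and the line is the mean. Rax is near 0 in all SCN libraries, and Crym has its 3 high SCN libraries above 28 CPM.

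**Figure D4:**
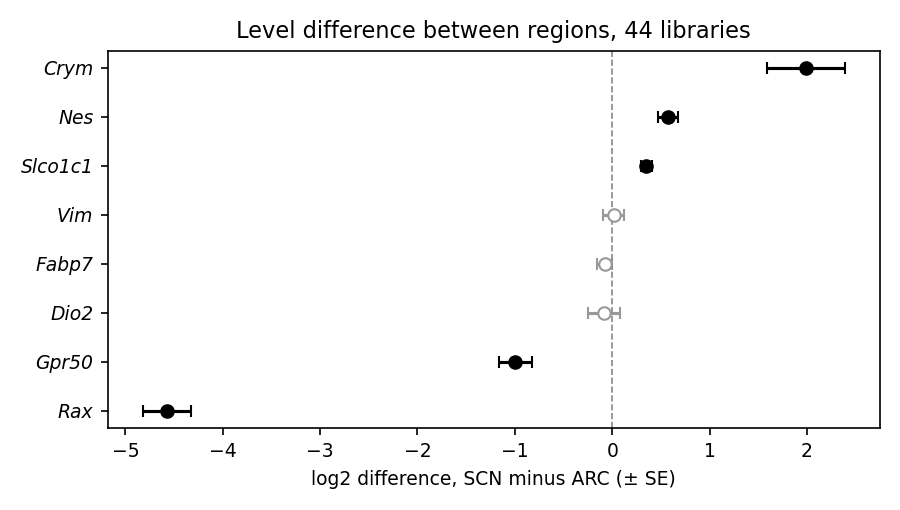
Log2 difference in level, SCN minus ARC, with SE, from 1 model over 44 libraries. Filled points passed the test at an adjusted p-value of 0.05 and open points did not. Differences run from -4.57 for Rax to 1.99 for Crym. Rax passed the filter on low counts in ARC but not in SCN.

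Dio2 and Slco1c1 came closest to a rhythm after Fabp7. In ARC, Dio2 had its highest time-point mean at ZT 22 in Mu, where the libraries gave 11.2 and 23.97 CPM, and at ZT 14 in Hu, with 13.8 and 18.3 CPM. Its lowest time-point means were at ZT 6 in both arms, with 5.65 and 9.996 CPM in Mu and 7.53 CPM in Hu. The fitted peak was ZT 17.7 in Mu and ZT 15.9 in Hu, both in the dark phase, and the averaged rhythm did not pass the test (edgeR adjusted p = 0.115). It passed with DESeq2 (adjusted p = 0.0298), without the second Mu ARC library of ZT 18 (adjusted p = 0.0486) and without the first of ZT 22 (adjusted p = 0.0404), and ranged up to 0.264 without other single libraries. In SCN, Slco1c1 had its highest time-point mean at ZT 6 in Mu, with 70.8 and 73.96 CPM, and at ZT 10 in Hu, with 67.7 and 72.2 CPM. Its averaged rhythm missed the threshold (edgeR adjusted p = 0.0806), and passed with DESeq2 (adjusted p = 0.0138) and without the SCN library that stood apart (adjusted p = 0.0264). Of the 7 endothelial markers, 2 were called for this rhythm in SCN, beside 0.886% of all genes tested. They were the transporters Slco1a4 (edgeR adjusted p = 0.0106) and Abcb1a (adjusted p = 0.0264). Their fitted peaks lay at ZT 10.3 and 10.6 in Mu and 7.72 and 8.79 in Hu. Those of Slco1c1 lay at ZT 7.67 in Mu and 7.31 in Hu. The part of endothelial cells in the Slco1c1 course was not tested. The remaining averaged rhythms of the 8 genes had edgeR adjusted p-values of 0.209 or more.

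Compared per kilobase of merged exon length, Fabp7 was the most abundant of the 8 genes in both regions, at 23.8 ± 11.1 CPM per kb in ARC and 22.6 ± 11.4 in SCN (SD, n = 22). Slco1c1 followed at 9.20 ± 1.16 and 11.8 ± 1.8 CPM per kb, and Vim at 7.14 ± 0.80 and 7.23 ± 2.88. In ARC the order went on with Gpr50 at 4.33, Dio2 at 2.05, Nes at 1.48, Crym at 0.584 and Rax at 0.3 CPM per kb, and each gene exceeded the next in 17 or more of 22 libraries. In SCN the middle ranks were not separated: Crym, Gpr50, Nes and Dio2 had means of 2.95, 2.26, 2.23 and 1.92 CPM per kb, and Crym exceeded Gpr50 in 10 of 22 libraries and Gpr50 exceeded Nes in 11. Rax was last, at 0.0121 CPM per kb.

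How far the 8 genes varied together was described by pairs. Pairwise correlations of log2 CPM were computed for 28 pairs in each region over 22 libraries. Time of day was not removed, so a shared or opposed daily course can enter these coefficients and their p-values. In ARC no pair passed the adjusted threshold for Pearson's r or Spearman's rho. The closest there were Vim with Nes (r = 0.52, permutation p = 0.0107, adjusted p = 0.0999; rho = 0.56, permutation p = 0.0074, adjusted p = 0.104; r = 0.54 without the 2 libraries farthest from the Vim median), Rax with Vim (r = 0.59, permutation p = 0.00413, adjusted p = 0.0999; rho = 0.51, permutation p = 0.0161, adjusted p = 0.15; r = 0.50 without the 2 libraries farthest from the Rax median) and Fabp7 with Dio2 (r = -0.55, permutation p = 0.00839, adjusted p = 0.0999; rho = -0.62, permutation p = 0.0026, adjusted p = 0.0728; r = -0.46 without the 2 farthest in Fabp7). In SCN 3 pairs passed for r. Dio2 and Gpr50 moved in opposite directions (r = -0.67, permutation p = 0.00046, adjusted p = 0.0129; rho = -0.67, permutation p = 0.00066, adjusted p = 0.0185; r = -0.56 without the 2 farthest). So did Crym and Gpr50 (r = -0.64, permutation p = 0.00113, adjusted p = 0.0158; rho = -0.60, permutation p = 0.004, adjusted p = 0.056; r = -0.52 without the 2 farthest). Vim and Nes moved together (r = 0.57, permutation p = 0.00531, adjusted p = 0.0496; rho = 0.42, permutation p = 0.0539, adjusted p = 0.216), but r fell to 0.23 without the 2 libraries farthest from the Vim median, so that relation rests on those libraries. The number of pairs called, 3, ranged from 0 to 6 when single libraries were left out; it was 0 without the Hu SCN library of ZT 22, 1 without the Hu SCN library of ZT 6, 5 without the first Mu SCN library of ZT 2, and 6 without the second Mu SCN library of ZT 10 or without the second Hu SCN library of ZT 14. Within arms, with the arm means removed, 4 pairs were called.

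Among the genes closest to Rax over the 44 libraries were Cyp2f2 (r = 0.66), Fshb (0.63), Pitx1 (0.62) and Cga (0.62). Fshb and Cga encode subunits of pituitary glycoprotein hormones, and Pitx1 is a pituitary transcription factor. Within ARC the values were 0.71 for Cyp2f2 and 0.65 for Cga, and within SCN -0.13 and 0.25. Cga ranged from 0 to 12.3 CPM in ARC libraries with a median of 4.60, and did not exceed 0.553 CPM in SCN. Of 6 markers of pars tuberalis and pituitary, 4 could be tested between regions and 3 were lower in SCN, where 34% of all genes were lower. Among them was Cga with a log2 difference of -5.28 ± 0.63 (edgeR adjusted p = 3.07e-09). Within single regions, 3 of the 6 passed the filter on low counts in ARC and 0 in SCN. Such genes entered the comparison through ARC, where they are high, so its direction was largely fixed in advance. The summed level of the 6 markers ran from 5.70 to 50.4 CPM over the ARC libraries. The part of this tissue in the Rax levels was not tested.

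A list of 13 further tanycyte genes was compared between regions in the same way. All 13 were tested, of which 12 also passed the filter on low counts in SCN alone. Between regions, 7 were lower in SCN, 3 were higher and 3 were not called, with a median log2 difference of -0.21 beside 0.02 over all genes tested. Since 71.6% of all genes were called in this comparison, 34% lower and 37.6% higher, 10 of 13 is near the background. Fgf10, a growth factor, fell by 1.29 on the log2 scale in SCN relative to ARC (SE 0.07, edgeR adjusted p = 8.95e-18), and Scn7a, a sodium-sensing channel, fell by 2.02 (SE 0.12, adjusted p = 9.62e-17). Slc17a8, a vesicular glutamate transporter, was higher in SCN by 1.07 ± 0.08 (adjusted p = 4.56e-14). Scn7a did not overlap between regions, with 15.7 to 32.6 CPM in ARC and 2.60 to 9.77 CPM in SCN. None of the 13 was called for a rhythm in any arm or region. Over all genes these tests called 0.00666% to 3.41%, so this is near the background. The smallest p-values for the averaged rhythm belonged to Adm in ARC (edgeR adjusted p = 0.13) and Slc17a8 in SCN (adjusted p = 0.223). All 6 ependymal markers, which mark the ciliated cells that line the ventricle beside tanycytes, were lower in SCN, with a median log2 difference of -2.31, where 34% of all genes were lower. Within SCN, 5 of these 6 markers passed the filter on low counts. Foxj1, their ciliogenesis factor, fell by 1.32 (SE 0.11, adjusted p = 1.91e-13). Their summed level was 48.2 to 75.1 CPM in ARC libraries and 14.6 to 40.8 CPM in SCN libraries, and the part of the ventricular wall in the Rax and Scn7a differences was not tested.

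The thyroid hormone pathway list holds 13 genes, 3 of which (Slco1c1, Dio2 and Crym) belong to the 8. In the region comparison 12 were tested, 4 were higher in SCN, 3 were lower and 5 were not called, with a median log2 difference of -0.03. This is not above the 71.6% called over all genes. The 3 with the smallest p-values were Cga, Slco1c1 and Thrb, a thyroid hormone receptor that fell by 0.40 on the log2 scale in SCN (SE 0.07, edgeR adjusted p = 4.05e-06). Cga passed the filter on low counts in ARC but not in SCN. In the arm and rhythm comparisons edgeR called none of the list, where it called at most 3.41% of all genes. DESeq2 results were looked up only for the 3 genes that belong to the 8. Of these, DESeq2 called Slco1c1 (averaged rhythm in SCN, adjusted p = 0.0138) and Dio2 (averaged rhythm in ARC, adjusted p = 0.0298). So did edgeR without the single libraries named above. Hr, a thyroid hormone target, and Klf9, another, had adjusted p-values for the averaged rhythm of 0.0998 in ARC and 0.1 in SCN, respectively.

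Of the 10 genes of the fatty acid binding protein family, 3 passed the filter, Fabp3, Fabp5 and Fabp7, and neither Fabp3 nor Fabp5 was called for a rhythm. Fabp5, which binds fatty acids in neurons and epithelia, ranged from 61.0 to 86.9 CPM in ARC with a fitted amplitude of 0.07 in each arm (averaged rhythm, edgeR adjusted p = 0.907). Fabp3, the heart-type protein, ranged from 31.4 to 54.7 CPM (adjusted p = 0.718). Between regions, Fabp5 was lower in SCN by a log2 difference of -0.15 ± 0.04 (adjusted p = 0.000846) and Fabp3 higher by 0.11 ± 0.05 (adjusted p = 0.0428). Among 8 astrocyte markers, which mark the other main cell type that expresses Fabp7, none was called for a rhythm in any arm or region. Over all genes these tests called 0.00666% to 3.41%. No call among these 8 markers, or for Fabp3 and Fabp5, is thus near the background. The astrocyte marker closest to a call was Aldh1l1 for the averaged rhythm in ARC (edgeR adjusted p = 0.0542). Its fitted amplitudes were 0.14 in Mu and 0.11 in Hu, against 0.80 and 0.90 for Fabp7. The astrocyte markers summed to 2738 to 3315 CPM in ARC libraries and 2487 to 5348 CPM in SCN libraries, the highest in the library that stood apart.

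Skeletal muscle from the same series gave a background for these genes outside the brain. In 27 muscle libraries Fabp7 was counted with 0 to 27 reads, Rax with 0 to 4, Gpr50 with 0 to 14 and Slco1c1 with 1 to 15, all at most 0.445 CPM per library. Vim, at 103 to 248 CPM, and Nes, at 21.8 to 116 CPM, were higher there than in any ARC library, and both are known from vessels and muscle. Dio2 reached 12.6 CPM and Crym 4.43 CPM in muscle. Muscle was scaled apart from the brain libraries, so levels are set side by side without a test.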

How the data were processed

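RNA was sequenced from ARC and SCN tissue after column extraction and strand-keeping library preparation, per the labels' protocols. The authors deposited raw read counts per mouse gene for all libraries of 3 tissues in 1 table. The aligner STAR and the build GRCm38 are named in the submitters' processing notes, and the counting tool and annotation are not given in the sources used here. Each column was matched to its labelled sample; for 2 columns, the Hu ARC and SCN libraries of ZT 22, the replicate number differs from the label, and they were used by group only. The 8 genes and all gene lists were chosen with earlier results of these data known.

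Genes were filtered by filterByExpr, scaled by TMM and tested with the quasi-likelihood test of edgeR 4.0.16 in R 4.3.3. In each region the model held an intercept and a 24 h cosine and sine per arm; a model over all 44 libraries gave the region contrasts. P-values were adjusted by Benjamini-Hochberg over all genes tested, with a threshold of 0.05. The averaged rhythm is the mean of both arms' cosine terms. Fabp7 was left out of the counts for the Hu SCN and averaged SCN rhythm. Log2 CPM for correlations used a pseudocount of 0.5 and permutation tests used 100000 draws. Phase errors are jackknife SEs over libraries.

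The 8 genes are named throughout. From each list the 3 genes with the smallest p-value in a comparison could be named, and for Fabp7 and Rax the 5 genes with the highest Pearson r. Some genes that this rule picks are not reported here. Lhx2 in the check of libraries, the further clock genes and the ranges of list genes were chosen after their values were seen. Alternatives were relative log expression scaling, DESeq2 1.42.0 likelihood ratio tests, no filter, ZT as a factor, a replicate block, and leaving out each library. No libraries of a group agreed within sampling noise. The functions were tested on simulated data. Levels per kilobase used merged exon lengths of GENCODE M21.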

Additional observations from a re-analysis of the deposited data

How the results depend on the processing

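The number of the 8 genes called in each comparison was unchanged under every alternative run (relative log expression scaling, DESeq2, no filter on low counts, ZT as a factor, the replicate block, numbered libraries only, and leaving out single libraries), with 3 exceptions. For the averaged rhythm in SCN, DESeq2 called 1 gene besides Fabp7 (Slco1c1) where edgeR called 0, and leaving out single libraries gave 0 to 1. For the averaged rhythm in ARC, DESeq2 called 2 genes (Fabp7 and Dio2) against 1, and leaving out single libraries gave 1 to 2. The number of correlated pairs, 3, ran from 0 to 6. The region difference of Vim, 0.02 and not called, turned to -0.032 with the replicate block, to -0.018 without the SCN library that stood apart, and ranged from -0.088 to 0.065 without single libraries. The cause of these changes was not tested.

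Counts over all genes moved more. Rhythm calls in Mu SCN were 31 with edgeR, 289 with DESeq2, 134 with ZT as a factor and 12 with the replicate block. In Hu SCN the single call that chose Fabp7 became 22 with DESeq2 and 0 with ZT as a factor, with the replicate block or with numbered libraries only. For the averaged rhythm the counts were 133, 643, 27 and 67 in SCN and 514, 900, 98 and 382 in ARC, in the same order of settings. In Mu ARC they were 213, 514, 29 and 144, and in Hu ARC 15, 92, 2 and 5, with 40 where no filter was applied. Level differences between arms in ARC were 1 with edgeR and 14 with DESeq2. The rhythm difference between regions in Mu was called for 0 genes with edgeR and 45 with ZT as a factor.

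The adjusted p of Fabp7 for the rhythm in Mu SCN was 0.00824 with the replicate block, 0.0139 with ZT as a factor and between 0.0017 and 0.0113 without single libraries. In Hu ARC it was 0.0173, 0.0331 and between 0.000471 and 0.0145. Replicate numbers were not taken to pair the libraries, since not every correlation between the deviations of same-numbered libraries was over 0.1. This rule cannot exclude that same-numbered ARC and SCN libraries came from the same mice. Between arms 3 of 4 were in ARC (mean 0.15, range -0.14 to 0.38) and 2 of 4 in SCN (mean 0.12, range -0.30 to 0.39), and between regions 6 of 10 (mean 0.11, range -0.22 to 0.33, 8 positive). Each time point and arm had at most 2 libraries, and Hu had 1 at ZT 6 and 22. Rax in SCN rests on at most 6 reads per library.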

Other observations

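Crym ranged from 0.701 to 58.3 CPM over the SCN libraries, and the 5 genes closest to it over the 44 brain libraries were looked up after its values were seen. They were Krt9 (r = 0.69), Tshz1 (0.68), Strip2 (0.67), Inf2 (0.67) and Plk1 (0.65). Within SCN the coefficients ran from 0.71 for Plk1 to 0.82 for Krt9, and within ARC from -0.07 for Krt9 to 0.56 for Plk1, over 22 libraries each. The values describe these libraries and carry no test.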
